A study of Mus musculus with 48 samples.

Results

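The transcriptome of the wild-type (WT) prefrontal cortex was compared between mice of 6 weeks (6W) and adults of 4 to 6 months (labelled 6M), the step that follows brain maturation. The comparison rests on 8 of the 48 libraries of the study, chosen by their labels as WT prefrontal cortex at 6W (4 libraries) or 6M (4 libraries). The study sequenced poly(A) RNA from hippocampus and prefrontal cortex of male WT mice and of male mice without alkyladenine DNA glycosylase (Aag-/-, here KO; the gene is Mpg), an enzyme that starts base excision repair. It also holds groups at postnatal day 5 (P5), and each group has 4 samples. For comparison the same age step is given in the 8 KO prefrontal libraries and in the 8 WT hippocampal libraries at the same ages. The labels name neither the strain nor whether hippocampus and prefrontal cortex came from the same animal, the design text states 4 animals per time point, and the 6M group spans adults of different ages.

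By 6 weeks the mouse cortex has its layers, most of its synapses and most of its myelin, and what follows is slower. Oligodendrocyte precursors go on dividing and differentiating through a short-lived newly formed stage into myelinating cells, at a rate that declines with age. Expression of growth and cytoskeletal genes of young neurons, of collagens of growing vessels and of cell cycle genes goes on declining, whereas complement and interferon-linked genes of glia are known to increase late in life.

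The 8 libraries held between 24135877 and 29189171 counts, with 15.9% to 21.4% of counts from mitochondrial genes, and 3 counts corresponded to 0.106 to 0.134 CPM (a gene's count scaled by the TMM-adjusted library size, the unit of all levels below). Genes of cortical projection neurons were expressed in all 8 libraries. Their summed levels over 20 genes were 3745 to 4215 CPM at 6W and 3203 to 4132 CPM at 6M. In WT hippocampus, scaled separately, the same genes summed to 2241 to 2599 CPM at 6W and 2612 to 2734 CPM at 6M. Slc17a7, the vesicular glutamate transporter of cortical excitatory neurons, had means of 1167 CPM at 6W and 1157 CPM at 6M. Mpg had values of 5.60, 5.71, 5.68 and 4.76 CPM at 6W and of 5.04, 5.03, 5.52 and 5.45 CPM at 6M, and every one of these lay above the 8 KO libraries at 1.39 to 2.54 CPM. Marker genes of neighbouring tissue varied between libraries of the same age. Summed over 16 genes of striatal medium spiny neurons, the 6W libraries had 576, 1552, 727 and 1328 CPM and the 6M libraries 523, 1178, 508 and 1083 CPM (replicates 1 to 4), so that replicates 2 and 4 were high at both ages. Summed over 20 compact myelin genes, 6M replicate 1 had 1145 CPM against 2318 to 2659 CPM in the other 6M libraries and 2575 to 3494 CPM at 6W. In bulk tissue, fewer cells of a type and less RNA per cell cannot be told apart.

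The step was small. Among 9714 genes with a mean log2 CPM of 3 or more, the median absolute log2 fold change from 6W to 6M was 0.07 and the 95th percentile 0.26 (edgeR, TMM-normalised counts). The step from P5 to 6W, which shares the 6W libraries, had a median of 0.47 and a 95th percentile of 2.02 over the same genes. Of 18144 genes tested, 7 (0.0386%) passed an adjusted p of 0.05 in edgeR's quasi-likelihood test, 5 of them (0.0276%) higher and 2 (0.011%) lower at 6M. Abca8a, Cyp2e1, Spag6, Gm42756 and AA414992 rose, and Traf3 and 9630013A20Rik fell. An unadjusted p under 0.05 was reached by 860 genes (4.74%), 416 higher (2.29%) and 444 lower (2.45%). The 4 values at 6M and the 4 at 6W did not overlap for 719 genes (3.96%), 367 higher (2.02%) and 352 lower (1.94%). The number of calls depended on the tool, with 29 genes called by DESeq2 (12 higher and 17 lower), among them all 7 of edgeR's.

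**Figure D1:**
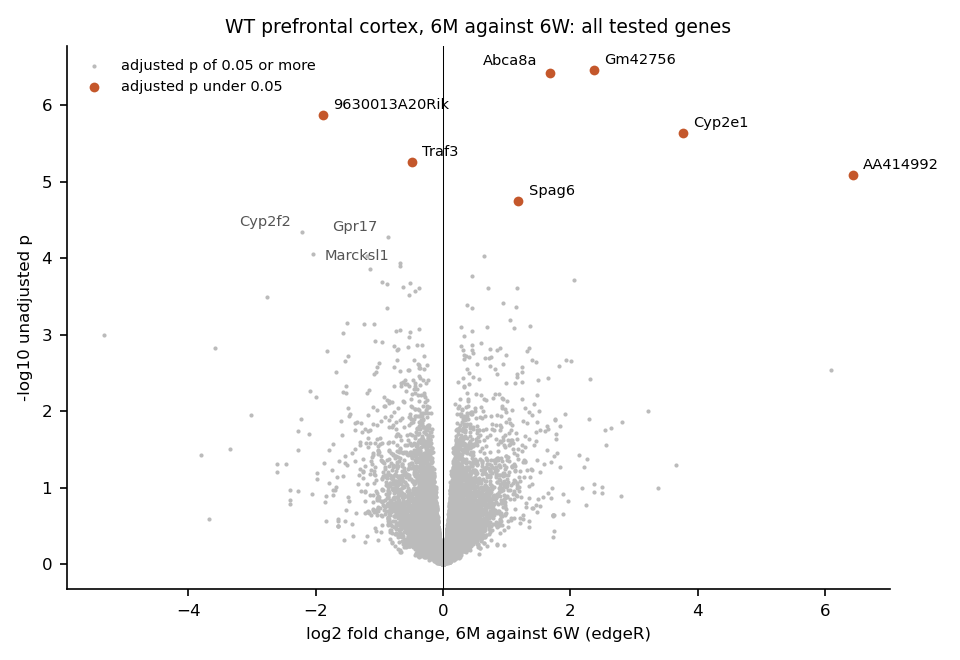
All 18144 genes tested in WT prefrontal cortex, with the edgeR log2 fold change from 6W to 6M on the x axis and the -log10 unadjusted p on the y axis. The 7 genes with an adjusted p under 0.05 are labelled in colour, and 3 genes below that threshold in grey; most genes lie near a log2 change of 0. The position of AA414992 on the x axis depends on the prior count, because it had no counts at 6W.

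The 2 genes whose calls held in all 15 other settings tried were Abca8a and Gm42756. Abca8a, an ATP-binding cassette transporter of the lipid-transporting A family (chromosome 11, 110025634 to 110095978, minus strand, GENCODE M21 on GRCm38), had 2.78, 2.68, 1.99 and 2.36 CPM at 6W and 4.29, 10.9, 8.62 and 7.73 CPM at 6M. All 6M libraries lay above all 6W libraries, and 6M replicate 1, the library low in myelin genes, was the lowest of its group. The log2 fold change was 1.68 (SE 0.25, adjusted p = 0.00345, edgeR), and 1.89 without 6M replicate 1. Abca8a had stood at a mean of 5.05 CPM at P5, between both later ages. Gm42756, an antisense RNA whose span on chromosome 9 (109537100 to 109552780, plus strand) overlaps Fbxw15 on the other strand, had 0.305, 0.551, 0.568 and 0.327 CPM at 6W and 1.23, 3.52, 2.22 and 2.14 CPM at 6M. Its groups did not overlap either, and its log2 fold change was 2.37 (SE 0.34, adjusted p = 0.00345, edgeR). Its mean at P5 was 0.00934 CPM, under the level of 3 counts. Whether the deposited counts used strand is not given in the sources used here, so reads of an antisense RNA and of the gene it overlaps may not have been told apart.

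Cyp2e1, a cytochrome P450 that oxidises ethanol and other small molecules (chromosome 7, 140763739 to 140774987, plus strand), went from 0.0381, 0.0787, 0.071 and 0.145 CPM at 6W to 1.01, 1.17, 1.80 and 0.804 CPM at 6M. The 6W values are 1, 2, 2 and 4 counts, at or near the level of 3 counts, against 18 to 47 counts at 6M, and it was listed at 0 at P5. Its log2 fold change was 3.77 (SE 0.57, adjusted p = 0.0105, edgeR), and the adjusted p was 0.0512 to 0.0984 without 6M replicate 3 or without 6W replicate 1, 2 or 3. AA414992 (chromosome 13, 68181294 to 68182869, plus strand), a locus that GENCODE marks as to be experimentally checked, had no count in any 6W library and 16, 11, 4 and 6 counts at 6M. Against a level of 3 counts per library at 6W, its mean of 0.37 CPM at 6M was at least 3.31-fold higher (adjusted p = 0.0248, edgeR). The adjusted p was 0.0604 to 0.127 without 6M replicate 1 or 2 or without any 1 of the 6W libraries. Spag6, a protein of the central pair of motile cilia (chromosome 2, 18694032 to 18750413, plus strand), had 2.02, 1.61, 1.74 and 1.60 CPM at 6W and 4.78, 3.82, 4.52 and 2.73 CPM at 6M, without overlap. It rose by 1.19 log2 units (SE 0.22, adjusted p = 0.0469, edgeR) and had a mean of 0.166 CPM at P5. The call of Spag6 was lost in 10 of 15 other settings, among them the fit of the compared groups alone (adjusted p = 0.0675) and the omission of 6M replicate 1, 2 or 3 or of any 6W library (0.0727 to 0.278, edgeR). Of the 31-base words of its transcripts, 2.51% also occur in other genes, most often in its paralogue Spag6l. That share was 3.11% for Abca8a, most often with its paralogue Abca8b, 4.08% for AA414992, 5.83% for Cyp2e1 and 6.42% for Gm42756, and 0 for Traf3 and 9630013A20Rik. The values of the 5 genes with shared words may depend on how reads matching several genes were counted. Of 7 genes tested of ependymal cells, which carry motile cilia, none reached an unadjusted p under 0.05 (all genes 4.74%). The median log2 change was -0.13, or between -0.26 and -0.01 with 1 library left out or another scaling or filter.

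Both genes that fell had all their 6M values below all their 6W values. Traf3, an adaptor of TNF receptor family members that restrains noncanonical NF-kappaB signalling (chromosome 12, 111166370 to 111267153, plus strand), had 52.9, 58.7, 62.7 and 60.1 CPM at 6W and 40.7, 41.3, 40.2 and 44.4 CPM at 6M. All 6M libraries lay below all 6W libraries, and the gap between the groups exceeded the range within 6M but not that within 6W. Traf3 fell by 0.49 on the log2 scale (SE 0.09, adjusted p = 0.0201, edgeR). The call of Traf3 was lost in 9 of 15 other settings, among them the fit of the compared groups alone (adjusted p = 0.0589) and the omission of 6M replicate 1, 2 or 3 or of 6W replicate 2, 3 or 4 (0.0604 to 0.135, edgeR), with log2 changes between -0.54 and -0.46 over all settings. Its mean at P5 was 58.3 CPM, near the mean at 6W of 58.6 CPM. Of the 23 other tested genes of NF-kappaB and TNF receptor signalling, Ripk1 (log2 change 0.46) and Ikbkb (-0.20) had an unadjusted p under 0.05, against 4.74% of all genes, and the median of the whole list was -0.01.

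9630013A20Rik is an antisense RNA within the span of Pcdh17 (chromosome 14, 84458639 to 84476424, minus strand) that is known as a marker of newly formed oligodendrocytes. It had 6.13, 8.23, 4.12 and 5.31 CPM at 6W and 1.23, 1.34, 1.76 and 2.10 CPM at 6M, and fell by 1.89 on the log2 scale (SE 0.30, adjusted p = 0.00819, edgeR). At P5 its mean was 0.979 CPM, so 6W was the age of its highest level. The adjusted p rose to between 0.0507 and 0.0579 without 6M replicate 1, without 6M replicate 2 and without 6W replicate 2, with log2 changes of -1.78, -1.81 and -1.69.

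**Figure D2:**
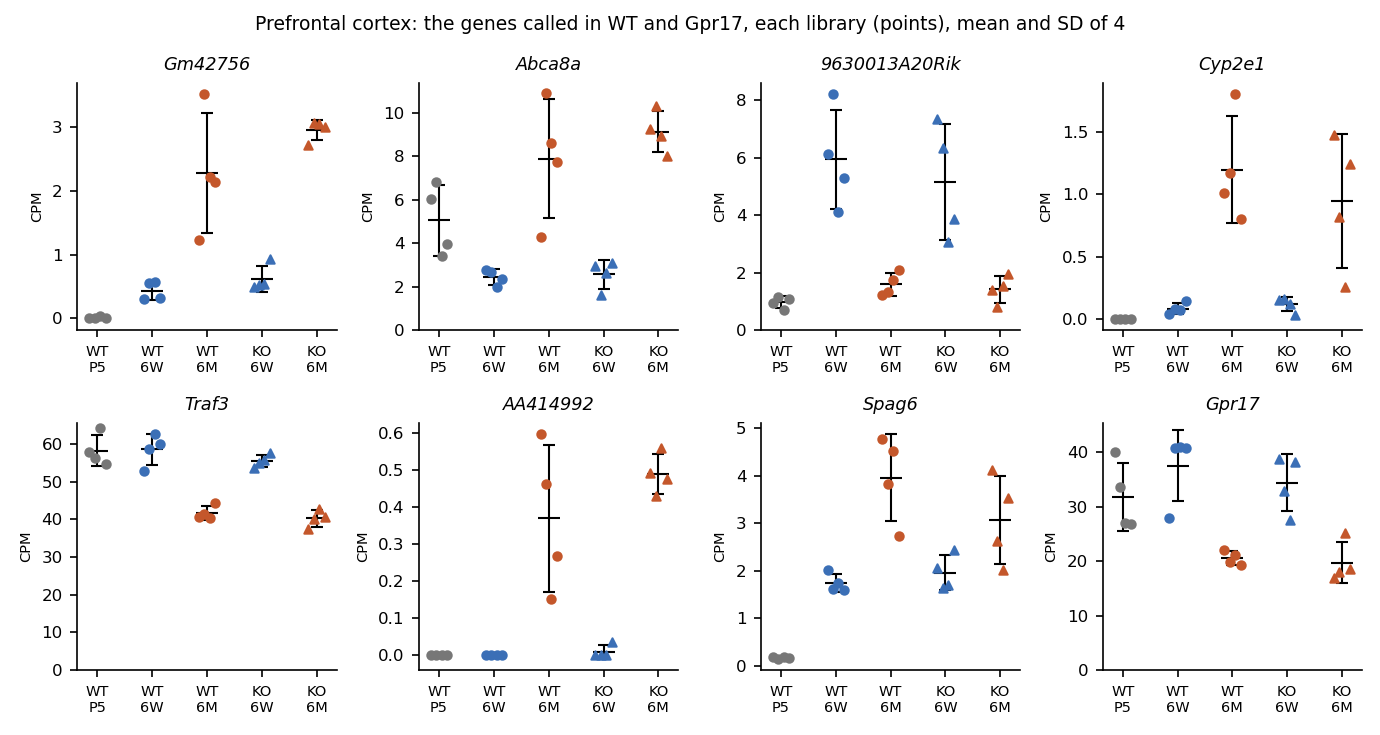
Levels in CPM (linear y axes) of the 7 genes called in WT and of Gpr17 in prefrontal cortex, by genotype and age on the x axis. Points are the 4 libraries of a group (circles WT, triangles KO), bars the mean and SD; the WT 6M and 6W points of each gene do not overlap.

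Other genes of the same short-lived oligodendrocyte stage had lower levels at 6M without passing the adjusted threshold. Gpr17, a receptor of committed precursors, had 27.8, 40.8, 40.9 and 40.7 CPM at 6W and 22.1, 19.8, 21.2 and 19.2 CPM at 6M, a log2 change of -0.87 (SE 0.18, adjusted p = 0.107, edgeR). All 6M libraries lay below all 6W libraries, of which replicate 1 was the lowest. The change was -0.99 with an adjusted p of 0.0433 without 6W replicate 1, and DESeq2 gave an adjusted p of 0.00371. Rnf122, a ubiquitin ligase, had 3.73, 4.29, 5.22 and 3.74 CPM at 6W and 1.90, 2.39, 1.57 and 1.79 CPM at 6M (log2 change -1.15, adjusted p = 0.166, edgeR). Enpp6, a choline phosphodiesterase of newly formed oligodendrocytes, had 9.71, 11.1, 7.70 and 10.4 CPM at 6W and 2.91, 6.83, 7.36 and 7.55 CPM at 6M (log2 change -0.66, -0.42 without 6M replicate 1). In the list of 15 tested genes of precursors and newly formed oligodendrocytes, 3 were lower and 0 higher at an unadjusted p under 0.05 (all genes 2.45% and 2.29%), and 14 of 15 log2 changes were negative, with a median of -0.18 against 0.00 over all tested genes. With 1 library left out or another scaling or filter, 1 to 5 were lower. The precursor markers Pdgfra, the growth factor receptor of dividing precursors, and Cspg4, its proteoglycan NG2, had log2 changes of -0.05 and -0.19 (unadjusted p = 0.542 and 0.434, edgeR). Neu4, Bmp4 and Tcf7l2, also of the newly formed stage, had changes of -0.30, -0.10 and -0.04.

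Genes of compact myelin and mature oligodendrocytes showed the largest count of low values among the lists. Of 20 tested, 9 were lower at 6M at an unadjusted p under 0.05 and 0 higher (all genes 2.45% and 2.29%). None passed the adjusted threshold. Of the log2 changes 15 were negative and 5 positive, from -0.82 to 0.51, with a median of -0.40. Mal, a raft-associated protein of myelin membranes, had 110, 113, 101 and 102 CPM at 6W and 30.6, 77.0, 66.5 and 84.6 CPM at 6M (log2 change -0.72, SE 0.20, adjusted p = 0.429, edgeR). The groups did not overlap, and 6M replicate 1 was the lowest library. Mog, a surface glycoprotein of the outer myelin layer, had 41.3, 54.9, 38.0 and 43.7 CPM at 6W and 13.4, 36.2, 27.4 and 34.5 CPM at 6M (log2 change -0.67). Cldn11, the claudin of myelin tight junctions, had 78.0, 85.1, 65.8 and 67.1 CPM at 6W and 22.4, 50.7, 46.8 and 48.1 CPM at 6M (log2 change -0.82). Without 6M replicate 1 these changes were -0.49, -0.44 and -0.61 and the median of the list was -0.20. At an unadjusted p under 0.05, 4 genes of the list were then lower and 1 higher. The part of tissue content in the values of 6M replicate 1 was not tested. For Mbp, a structural protein of central myelin, the 4 values at each age overlapped. Mbp had 762, 856, 679 and 647 CPM at 6W and 351, 673, 606 and 657 CPM at 6M (log2 change -0.36, -0.19 without 6M replicate 1). Of 22 cholesterol synthesis genes, the pathway that feeds myelin growth, only Insig1 (log2 change 0.32), a sterol sensor that holds the pathway back, reached an unadjusted p under 0.05, a share near the 4.74% of all genes, and the median was 0.04.

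**Figure D3:**
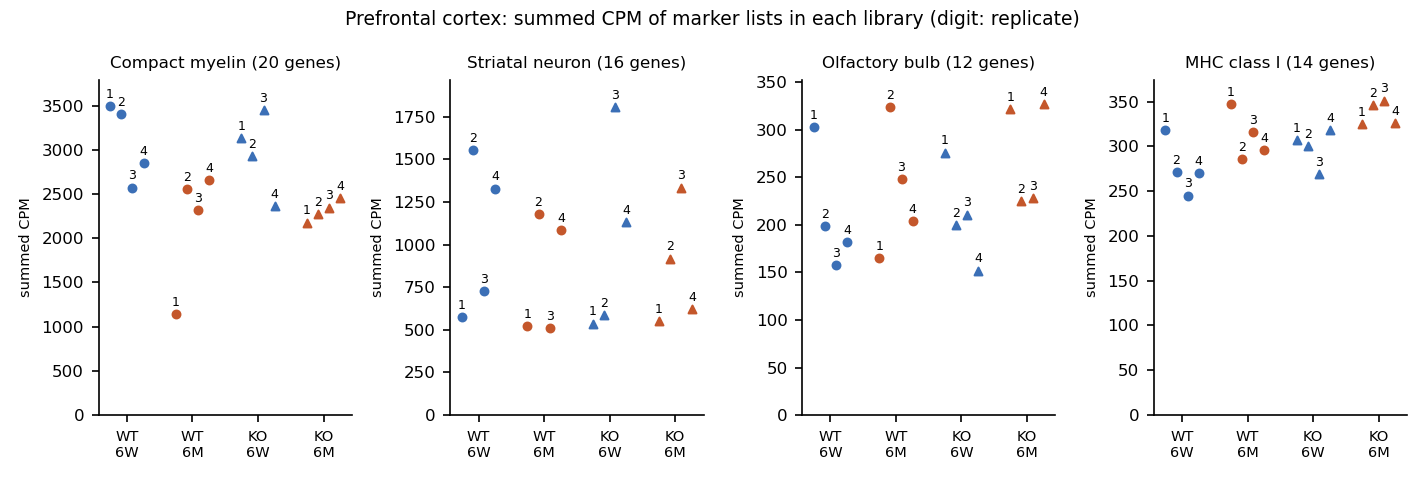
Summed CPM (linear y axes from 0) of 4 marker lists in each prefrontal library, by genotype and age on the x axis; digits give the replicate number, circles WT and triangles KO. In WT at 6M, replicate 1 stands at 1145 CPM for compact myelin, and replicates 2 and 4 are high for striatal genes at both ages.

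Genes of young neurons had mostly negative log2 changes. Of 20 genes of immature neurons and axon growth, 6 were lower and 0 higher at an unadjusted p under 0.05 (all genes 2.45% and 2.29%), 18 log2 changes were negative and the median was -0.21, after a median of -3.15 in the preceding step from P5 to 6W, which shares the 6W libraries. With 1 library left out or another scaling or filter, 2 to 10 of these genes were lower and the median lay between -0.27 and -0.18. Marcksl1, an actin-binding protein of growing neurites, had 54.4, 47.3, 38.9 and 40.2 CPM at 6W and 34.8, 26.8, 29.7 and 21.8 CPM at 6M (log2 change -0.67, SE 0.15, adjusted p = 0.165, edgeR), from a mean of 411 CPM at P5. The groups did not overlap, and the gene was called by DESeq2 (adjusted p = 0.0187). Sox11, a transcription factor of newborn neurons, had 21.0, 22.1, 17.9 and 18.7 CPM at 6W and 9.40, 18.0, 13.8 and 13.4 CPM at 6M (log2 change -0.54). Neurog2, a proneural transcription factor, had 0.914, 1.06, 0.816 and 0.618 CPM at 6W and 0.0746, 0.168, 0.307 and 0.268 CPM at 6M (log2 change -2.05, adjusted p = 0.140, edgeR), the 6M values lying near the level of 3 counts. Of 14 genes of proliferating cells, 2 were lower and 0 higher, against the same shares of all genes, and 9 log2 changes were negative, with a median of -0.14. The median was -0.05 without 6M replicate 3, and 1 to 4 genes were lower over the same alternatives. Mki67, a nuclear protein of cycling cells, had 3.96, 5.20, 6.39 and 5.09 CPM at 6W and 2.95, 3.35, 3.37 and 2.37 CPM at 6M (log2 change -0.77, SE 0.23, adjusted p = 0.488, edgeR). Kif11, a mitotic kinesin, had 1.95 to 2.56 CPM at 6W and 1.03 to 1.27 CPM at 6M (log2 change -0.95, adjusted p = 0.187, edgeR).

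Matrix genes of vessels had mostly negative log2 changes as well. Of 18 genes of fibrillar collagen and vascular matrix, 4 were lower and 0 higher at an unadjusted p under 0.05 (all genes 2.45% and 2.29%), and 14 log2 changes were negative, with a median of -0.31. With 1 library left out or another scaling or filter, 2 to 7 were lower and the median lay between -0.46 and -0.23. Col4a1 and Col4a2, the main chains of vascular basement membrane, had log2 changes of -0.52 and -0.50 (SE 0.19 each). Col4a2 had 14.7, 17.7, 17.9 and 19.3 CPM at 6W and 12.8, 14.4, 12.2 and 9.65 CPM at 6M, without overlap. Cd93, a receptor of angiogenic endothelium, had 22.9, 22.2, 22.1 and 21.7 CPM at 6W and 15.3, 13.0, 15.1 and 12.3 CPM at 6M (log2 change -0.68, SE 0.15, adjusted p = 0.159, edgeR). None of 18 endothelial cell and pericyte markers reached an unadjusted p under 0.05, and their median was -0.08. In the extracellular matrix of the brain itself, 2 of 15 genes were lower and 0 higher, against the same shares of all genes. These were Ncan, a chondroitin sulfate proteoglycan (log2 change -0.21), and Adamts4, a protease that cleaves such proteoglycans (-0.51, -0.28 without 6M replicate 1). The median of the list was -0.13, or -0.07 without 6W replicate 4, and 0 to 2 genes were lower with 1 library left out or another scaling or filter.

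Lists of neurons and of their receptors had 0 or 1 gene each at an unadjusted p under 0.05 (all genes 4.74%). Of 17 ionotropic glutamate receptor genes none reached an unadjusted p under 0.05, with log2 changes from -0.20 to 0.10. Grin2a, the NMDA receptor subunit that gains weight with maturation, had 405, 353, 435 and 456 CPM at 6W and 428, 351, 337 and 374 CPM at 6M. Its log2 change was -0.15 (SE 0.14), and that of the juvenile subunit Grin2b was -0.04 (SE 0.13). Of 19 interneuron genes, Sst, a neuropeptide of one interneuron class, was lower (log2 change -0.38, unadjusted p = 0.024, edgeR), whereas Pvalb, the calcium buffer of fast-spiking cells, had a change of -0.14 (SE 0.16). Of 20 genes of excitatory layers, Rgs4, a brake on G protein signalling, was lower without overlap, at 734, 551, 558 and 580 CPM at 6W and 539, 358, 453 and 438 CPM at 6M (log2 change -0.44, unadjusted p = 0.0116, edgeR). Of 26 genes of monoamine, acetylcholine and neuropeptide signalling, only the serotonin receptor Htr1a reached an unadjusted p under 0.05. It had 36.6, 34.4, 37.5 and 32.5 CPM at 6W and 26.4, 26.6, 27.4 and 28.3 CPM at 6M, without overlap (log2 change -0.37, SE 0.10, adjusted p = 0.368, edgeR). Of 13 GABA-A receptor genes, Gabra2, an alpha subunit, had 148, 262, 160 and 266 CPM at 6M, where the libraries high in striatal genes (replicates 2 and 4) were also the ones high in Gabra2, and the part of tissue content in its log2 change of 0.37 (0.24 without replicate 2 and 0.23 without replicate 4 of 6M) was not tested.

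In the astrocyte, microglia, complement and glial ageing, interferon and MHC class I lists, the genes that reached an unadjusted p under 0.05 were higher at 6M. None of 18 astrocyte and none of 18 microglia genes reached it. In the list of complement and glial ageing genes, 1 of 20 tested was higher and 0 lower, a share near that of all genes (2.29% and 2.45%). That gene was Il33, an alarmin cytokine of oligodendrocytes and astrocytes, at 27.9, 31.3, 19.0 and 21.4 CPM at 6W and 30.7, 58.0, 49.8 and 53.7 CPM at 6M (log2 change 0.95, SE 0.23, adjusted p = 0.246, edgeR). Again 6M replicate 1 was the low library of its group, and it alone overlapped with 6W. Without it the log2 change was 1.11 (adjusted p = 0.0733, edgeR). C4b, a complement component, had 4.23, 4.80, 4.68 and 6.04 CPM at 6W and 6.86, 9.98, 6.67 and 8.71 CPM at 6M, without overlap (log2 change 0.70, SE 0.42, unadjusted p = 0.107, edgeR). Gfap, the intermediate filament of astrocytes, had a log2 change of -0.13 (SE 0.26).

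Of 14 genes of antigen presentation by MHC class I, 13 had positive log2 changes, with a median of 0.35 against 0.00 over all tested genes. The 6M and 6W values did not overlap for 4 of them (all genes higher without overlap 2.02%), and 2 reached an unadjusted p under 0.05 (all genes higher 2.29%), or 1 to 3 with 1 library left out or another scaling or filter. Tap1, a subunit of the peptide transporter, had 1.03, 1.22, 1.35 and 1.09 CPM at 6W and 2.09, 1.64, 1.96 and 2.19 CPM at 6M (log2 change 0.74, SE 0.30, adjusted p = 0.908, edgeR). H2-T23, a nonclassical class I molecule, had 2.97, 2.13, 3.73 and 4.51 CPM at 6W and 6.16, 4.82, 5.02 and 3.57 CPM at 6M (log2 change 0.55). B2m, the common light chain of these molecules, had means of 223 and 250 CPM (log2 change 0.16, unadjusted p = 0.215, edgeR). In KO prefrontal cortex the median of the same list was 0.02. Of 24 interferon-stimulated genes, 3 were higher and 0 lower at an unadjusted p under 0.05, against the same share of all genes, and 16 log2 changes were positive, with a median of 0.16. With 1 library left out or another scaling or filter, 1 to 4 were higher. The 3 genes were Xaf1, Ifi27 and Ifit3, with changes of 0.51, 0.34 and 0.53. Ifit3, an antiviral RNA-binding protein, had 2.78, 2.48, 3.37 and 3.60 CPM at 6W and 4.07, 6.12, 4.68 and 2.81 CPM at 6M. Isg15, a ubiquitin-like modifier and a classical interferon target, had a log2 change of -0.63 (unadjusted p = 0.224, edgeR).

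The sequences upstream of genes of both lists were searched for GAAA followed by any 2 bases and GAAA, the core of the interferon-stimulated response element, on both strands of the 250 bases before the gene start (RefSeq, GRCm38.p6). It was present in 978 of 32851 promoters in the table (2.98%). Counted by gene, with a match in any of its promoters, it was present in 392 of 12527 genes tested in prefrontal cortex (3.13%), in 10 of 18 interferon-stimulated genes with a promoter in the table (55.6%) and in 2 of 12 MHC class I genes (16.7%). The promoters of Ifit3 (chr19:34583279-34583528, plus strand), H2-T23 (chr17:36032702-36032951, minus strand) and B2m (chr2:122147437-122147686, plus strand) are shown 5′ to 3′ in the direction of the gene, because Ifit3 is the one of the 3 interferon-stimulated genes named above with a match, and the other genes are the MHC class I genes that have it. Matches were not limited to genes with positive changes, since Isg15, with a log2 change of -0.63, has 3. Capitals mark each match, which reads TTTC, any 2 bases, TTTC where it lies on the other strand. A match describes letters and does not show that a factor binds.
Ifit3: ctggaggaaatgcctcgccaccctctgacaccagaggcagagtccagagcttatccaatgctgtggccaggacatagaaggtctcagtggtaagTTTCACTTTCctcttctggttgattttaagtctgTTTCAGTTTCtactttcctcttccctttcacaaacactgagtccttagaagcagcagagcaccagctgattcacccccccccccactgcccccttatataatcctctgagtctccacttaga
H2-T23: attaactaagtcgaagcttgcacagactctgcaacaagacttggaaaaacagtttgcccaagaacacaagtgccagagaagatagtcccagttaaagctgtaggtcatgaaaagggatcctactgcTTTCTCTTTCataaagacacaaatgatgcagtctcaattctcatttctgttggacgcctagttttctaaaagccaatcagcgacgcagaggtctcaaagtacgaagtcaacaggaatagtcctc
B2m: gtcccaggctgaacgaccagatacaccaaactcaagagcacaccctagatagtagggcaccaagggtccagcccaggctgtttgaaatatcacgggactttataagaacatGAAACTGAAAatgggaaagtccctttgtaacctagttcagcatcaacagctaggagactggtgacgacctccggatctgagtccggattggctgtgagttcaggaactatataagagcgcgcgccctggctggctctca

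**Figure D4:**
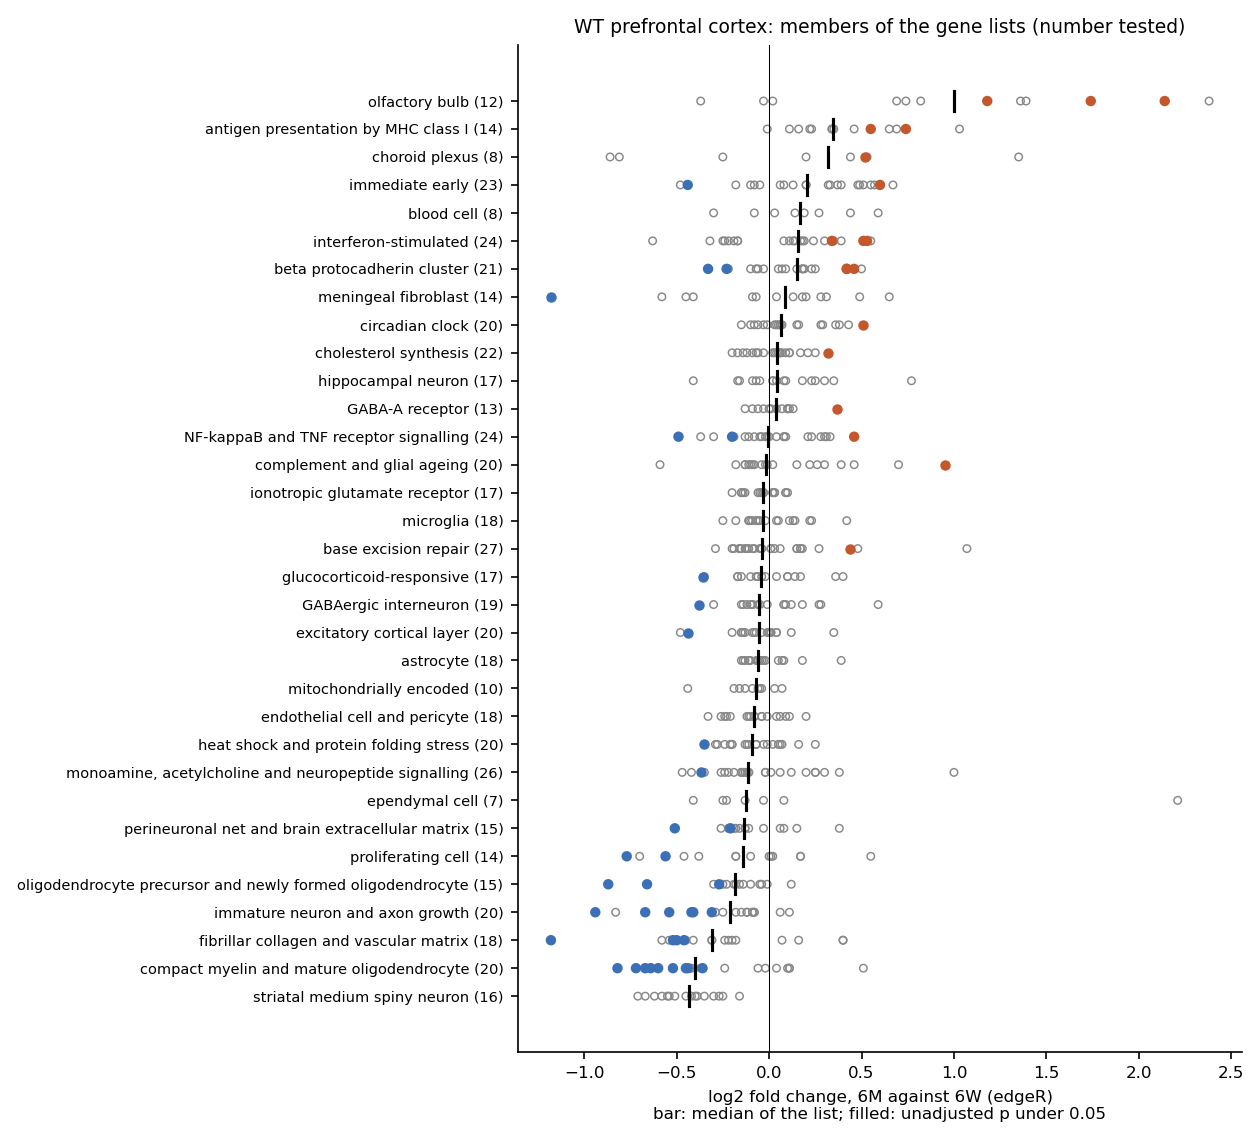
Log2 fold changes from 6W to 6M (x axis, edgeR) of the tested members of each gene list (y axis) in WT prefrontal cortex. Each point is a gene, filled where the unadjusted p was under 0.05, and the bar is the median of the list; compact myelin (median -0.40) and MHC class I (median 0.35) stand to either side of 0, and the striatal and olfactory bulb lists, which differ between libraries of 1 age, stand at the ends.

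Clustered protocadherins, cell surface proteins by which neurons tell themselves from their neighbours, held several genes with low unadjusted p. Among 21 beta protocadherins 3 were higher and 2 lower at an unadjusted p under 0.05 (all genes 2.29% and 2.45%), with a median log2 change of 0.15. The median was 0.09 without 6M replicate 2, 6M replicate 4 or 6W replicate 3, and 2 to 5 genes were higher and 0 to 3 lower with 1 library left out or another scaling or filter. Pcdhb9 had 10.9, 10.7, 9.40 and 10.1 CPM at 6W and 10.7, 15.6, 15.1 and 15.3 CPM at 6M (log2 change 0.46, adjusted p = 0.429, edgeR), with 6M replicate 1 at the level of 6W. Pcdhgb7 of the gamma cluster had 5.98, 6.10, 6.99 and 5.74 CPM at 6W and 8.73, 12, 9.24 and 8.93 CPM at 6M, without overlap (log2 change 0.65, SE 0.14, adjusted p = 0.140, edgeR). The remaining clusters were looked up after this value was seen. Of 19 gamma protocadherins of the A and B types, 6 were higher and 0 lower, against the same shares of all genes, and 18 had positive changes (median 0.24), whereas all 3 of the C types and 9 of 12 alpha protocadherins had negative changes, none at an unadjusted p under 0.05. Genes of a cluster share near-identical sequence, and those of the gamma cluster share their last exons. These values may therefore depend on how shared reads were counted, which was not tested.

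Among the remaining genes with the smallest p-values, Cyp2f2, a cytochrome P450, had 2.36, 1.06, 3.12 and 2.69 CPM at 6W and 0.597, 0.294, 0.498 and 0.581 CPM at 6M (log2 change -2.22, SE 0.45, adjusted p = 0.104, edgeR). C1qtnf6, a secreted protein of the C1q and TNF family, had 1.03 to 2.05 CPM at 6W and 0.485 to 0.958 CPM at 6M (log2 change -1.20). Ass1, an enzyme of arginine synthesis, had 10.4, 12.5, 11.5 and 11.1 CPM at 6W and 22.7, 18.5, 16.3 and 17.1 CPM at 6M (log2 change 0.71, adjusted p = 0.187, edgeR). Cd209a, a lectin of dendritic cells, had 0.145 to 0.343 CPM at 6W and 0.713 to 1.15 CPM at 6M (log2 change 2.07). Sntb2, a syntrophin of the dystrophin complex, Mttp, a lipid transfer protein, Tnfrsf8, a receptor of the TNF family, and Gm11837, an antisense RNA, had changes of 0.46, 0.38, 1.15 and 1.16, all without overlap. DESeq2 called all of these but Gm11837. Among genes at a mean log2 CPM of 5 or higher whose ages did not overlap, the largest positive changes were those of Zkscan16, a zinc finger protein (0.45), Prune2 (0.38) and Cpeb1, a regulator of mRNA translation (0.36), and the largest negative ones those of Cldn11, Mal and Mog.

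Activity, stress and clock genes showed no common direction, and each list had 0 to 2 genes at an unadjusted p under 0.05 (all genes 4.74%). Of 23 immediate early genes 1 was higher and 1 lower, with a median of 0.20 that ranged from -0.05 to 0.44 with 1 library left out or another scaling or filter. Of 20 clock genes, Bhlhe40, a repressor of the clock, was higher (log2 change 0.51, unadjusted p = 0.00894, edgeR), and of 20 heat shock and folding genes, Hspa5, the chaperone of the endoplasmic reticulum, was lower without overlap (-0.35, unadjusted p = 0.00362, edgeR). Of 17 glucocorticoid-responsive genes, Cdkn1a, a cell cycle inhibitor, was lower (-0.36, -0.24 without 6W replicate 4). Of 27 base excision repair genes, Lig1, a DNA ligase, was higher (0.44, unadjusted p = 0.0336, edgeR). None of 10 mitochondrially encoded genes reached an unadjusted p under 0.05.

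Tissue lists gave the medians farthest from 0. All 16 striatal genes had negative log2 changes, with a median of -0.43, none at an unadjusted p under 0.05. The median was -0.10 without 6W replicate 2. It ranged from -0.87 to -0.10 with 1 library left out or another scaling or filter. Among 12 olfactory bulb genes the median was 0.998, with 3 higher (Omp, Th and Trh) at an unadjusted p under 0.05 (all genes 2.29%). Th, the enzyme of dopamine synthesis, had 0.560, 11.6, 6.63 and 1.61 CPM at 6M, so that replicates 2 and 3 carried the difference, and Omp, the marker of mature olfactory sensory neurons, had 1.72 CPM in replicate 2 against 0.0373 to 0.307 CPM in the others. Without 6M replicate 2 the log2 change of Th was 0.95 in place of 1.74 and that of Omp 0.39 in place of 2.14, the median was 0.28 and no gene of the list reached an unadjusted p under 0.05. Of 17 hippocampal and 8 blood cell genes none reached it (all genes 4.74%), and of 8 choroid plexus genes only Kl did (log2 change 0.52). Of 14 meningeal fibroblast genes only Col3a1, a fibrillar collagen also in the vascular list, did so, with 2.63, 1.69, 3.09 and 5.78 CPM at 6W and 1.64, 1.80, 0.997 and 1.39 CPM at 6M. The groups overlapped, and its log2 change was -1.18, or -0.77 without 6W replicate 4, the highest library.

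The same step in KO prefrontal cortex had 17 called genes of 18144 (0.0937%), 7 higher (0.0386%) and 10 lower (0.0551%). In KO 11.1% of genes had an unadjusted p under 0.05 (4.92% higher and 6.18% lower). The KO libraries are other libraries than those of WT. Both genotypes were tested in the same fit with a shared estimate of the spread, so their calls are not independent. All 7 genes called in WT had the same sign in KO, and 6 of them, all but Spag6, were called there too. The KO calls of Gm42756 and Abca8a held in all 15 other settings. With 1 KO library left out, the call of Traf3 was lost in 8 of 8 cases (adjusted p = 0.0539 to 0.109, edgeR), those of Cyp2e1 and AA414992 in 7 each and that of 9630013A20Rik in 4, without a change of sign. The log2 changes in KO were 2.25 for Gm42756, 1.82 for Abca8a, -1.82 for 9630013A20Rik, 2.96 for Cyp2e1 and -0.46 for Traf3. That of Spag6 was 0.65 (adjusted p = 0.29, edgeR). The difference of the step between WT and KO passed the adjusted threshold for 0 genes in edgeR and in DESeq2, and reached an unadjusted p under 0.05 in edgeR for 497 genes (2.74%). Of the 416 genes higher at an unadjusted p under 0.05 in WT, 341 (82.0%) had the same sign in KO. Of these, 109 also reached that p in KO. Among the 444 lower genes the numbers were 370 (83.3%) and 158. The share of equal signs over all tested genes was not computed. Over genes with a mean log2 CPM of 3 or more, WT and KO log2 changes had a Pearson correlation of 0.498, and over the others 0.254. Within the lists, all 6 immature neuron genes, all 9 myelin genes and all 4 vascular matrix genes that were lower in WT had the same sign in KO, where 6, 4 and 3 of them reached an unadjusted p under 0.05. Of the 3 genes of precursors and newly formed oligodendrocytes, 2 had the same sign, and Olig2, a transcription factor of the lineage, had -0.27 in WT and 0.13 in KO. Signs also differed for 1 of 3 NF-kappaB genes, 1 of 2 immediate early genes and the 1 clock gene. The KO medians of the immature neuron, myelin and vascular matrix lists were -0.36, -0.34 and -0.19. In WT hippocampus the medians of these lists were -0.02, -0.55 and -0.06. Neither of the 2 MHC class I genes had the same sign. Tap1 had a log2 change of -0.18 in KO, and its difference between genotypes had an unadjusted p of 0.039 (edgeR).

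**Figure D5:**
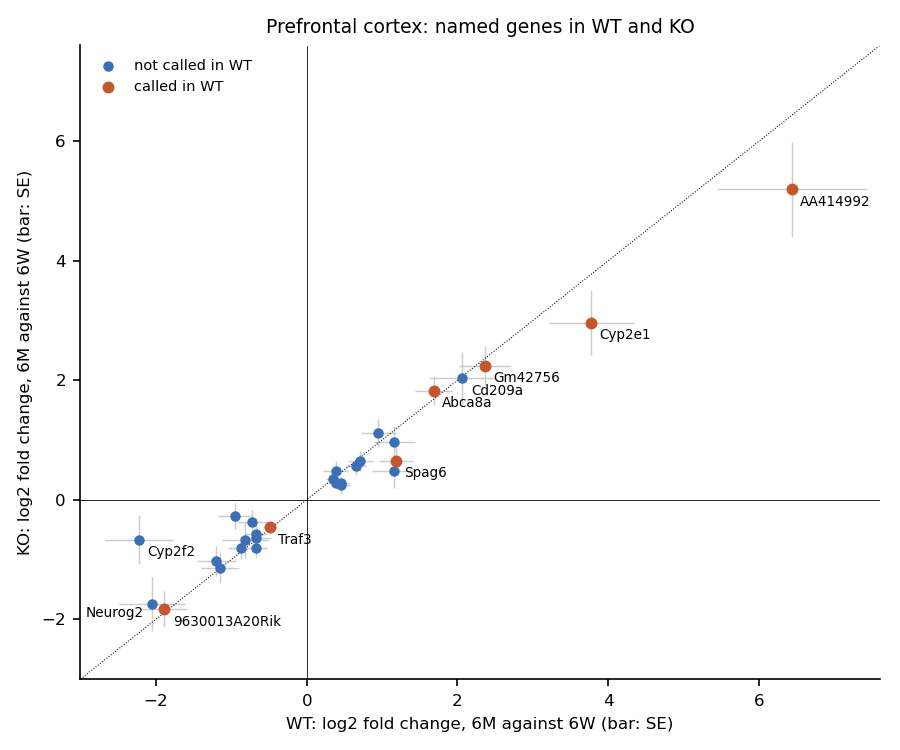
Log2 fold changes from 6W to 6M in WT (x axis) and KO (y axis) prefrontal cortex, with SE bars, for the genes called in WT and those named for their p-value or size in WT. The dotted line marks equal changes; all points share their sign between genotypes, and Cyp2f2 lies far from the line at -2.22 in WT and -0.67 in KO. The genes were chosen by their WT values, and the values of AA414992 depend on the prior count.

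In WT hippocampus the same step had 28 called genes of 17786 tested (0.157%), and 10.5% had an unadjusted p under 0.05. Of the genes called in prefrontal cortex, Gm42756 (log2 change 1.96), Abca8a (1.11) and 9630013A20Rik (-1.96) passed the adjusted threshold in hippocampus, and Cyp2e1 (2.62), Traf3 (-0.23) and Spag6 (0.86) did not. In a fit of the compared hippocampal groups alone, which called 2 genes, Abca8a kept the call, and Gm42756 and 9630013A20Rik lost it (adjusted p = 0.0626 and 0.0986, edgeR). AA414992 was not tested there. Gpr17, Rnf122, Mal, Cldn11 and Il33, below the adjusted threshold in prefrontal cortex, changed in hippocampus by -0.77, -1.51, -1.07, -1.03 and 1.09 (adjusted p = 0.0112, 0.00179, 0.00559, 0.0199 and 3.65e-05, edgeR). Of these 5, the fit of the compared groups alone kept only Il33 (0.0459 for Il33, 0.0626 to 0.116 for the others). Summed over the compact myelin genes, hippocampal 6W replicate 1 had 11515 CPM, against 5127 to 7554 CPM in the other 6W and 3748 to 5719 CPM in the 6M libraries. Without it 10 genes were called in place of 28, and Mal had a change of -0.90 (adjusted p = 0.0488, edgeR), Cldn11 of -0.86 (0.125) and Gpr17 of -0.70 (0.0748). Without 6M replicate 4, which left 9 calls, the adjusted p of Gpr17, Mal and Cldn11 was 0.0621, 0.0561 and 0.141 (edgeR), and Cldn11 also lost the call without 6M replicate 2 or 6W replicate 3. The difference of the step between the tissues passed the adjusted threshold for 0 of 18849 genes in edgeR and for 1 in DESeq2, and reached an unadjusted p under 0.05 in edgeR for 832 (4.41%). Marcksl1 had a log2 change of 0.00 in hippocampus. It is unknown whether the tissues came from the same animals.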

How the data were processed

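RNA of 48 samples was measured as stranded poly(A) libraries with single-end reads of 75 bases, per the labels. The authors deposited whole-number read counts per Ensembl gene, without normalization. Per the submitters' processing notes, bcl2fastq 2.20.0.422, STAR 2.4.0, HTSeq and the build GRCm38 were used. The annotation release, the strand setting and the treatment of reads matching several genes are not given in the sources used here, and a shared read can be lost or split between near-identical genes. No pair of libraries within the WT prefrontal 6W group or the 6M group agreed within sampling noise (chi-square per degree of freedom 8.94 or more). Other pairs were not checked.

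The counts were tested with edgeR 4.0.16 (R 4.3.3, quasi-likelihood, TMM, filterByExpr) in a fit of all 24 prefrontal libraries in 6 groups without a replicate term, with 18144 genes tested and Benjamini-Hochberg adjustment over all of them at 0.05. Hippocampus was fitted in the same way, and the difference between tissues in all 48 libraries. With 4 samples a group, p-values measure the spread between samples that the design text calls separate animals. The code was tested on simulated counts for this comparison (17774 genes tested). There 38% of genes changed by 0.5 log2 units, 96% by 1 and 100% by 2 or 3 were recovered, with 6.18% false calls. The changed genes, 50 of each size, were drawn only from genes with higher mean counts. The simulation called 178 genes against 7 in the data, which eases the adjusted threshold. These shares therefore do not give the recovery in the data and do not cover genes with few counts. CPM are TMM-scaled. Levels of 3 counts cover counting error only.

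Of 54838 genes, 54723 had a symbol, and positions are those of GENCODE M21. Named genes are those called, the 8 per direction with the next smallest p, the 3 per direction with the largest change at a mean log2 CPM of at least 5 and no overlap, 2 genes per list and a few markers. Other named genes were chosen after their values were seen. The members and lists were chosen with earlier results of these data known. Alternatives were median-of-ratios scaling, no filter, DESeq2 1.42.0, a threshold of 10 mean counts, the compared groups alone, a replicate block and each sample left out.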

Additional observations from a re-analysis of the deposited data

Results flagged for a closer look

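In 23 of 256 groups of 4 values examined (the named genes and the summed lists, at each age), the highest or lowest library stood apart from the other 3 by Dixon's criterion. Chance flags about 1 in 20 such groups, which would be 12.8 here.

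In 6M replicate 1, Cldn11 had 22.4 CPM against 46.8 to 50.7 in the other libraries of its age, Enpp6 2.91 against 6.83 to 7.55, Pcdhb9 10.7 against 15.1 to 15.6 and the glutamate receptor gene Grik5 116 against 96.8 to 99.6. In 6M replicate 2, Omp had 1.72 CPM against 0.0373 to 0.307, Pcdhgb7 12 against 8.73 to 9.24 and the thymine DNA glycosylase gene Tdg 7.42 against 6.23 to 6.43. In 6M replicate 3, the adipokine gene Rarres2 had 4.25 CPM against 2.81 to 2.99.

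At 6W, replicate 1 stood apart most often. It had 27.8 CPM of Gpr17 against 40.7 to 40.9, 734 of Rgs4 against 551 to 580, 6.70 of Adamts4 against 10.2 in each other library, 0.457 of the hippocampal marker C1ql2 against 0.106 to 0.118 and 24.0 of mt-Nd6 against 7.20 to 10.1. Its summed hippocampal neuron genes had 1885 CPM against 1554 to 1604, and its summed interferon-stimulated genes 98.8 against 93.0 to 93.7. Replicate 2 had 3.27 CPM of Ripk1 against 3.05 to 3.08, 25.8 of the microglial transcription factor Sall1 against 20.1 to 21.0, and 1900 CPM of summed monoamine, acetylcholine and neuropeptide genes against 1928 to 1933. Replicate 3 had 4.22 CPM of Xaf1 against 3.15 to 3.31, 88.5 of the pericyte marker Rgs5 against 108 to 112, 377 of the globin Hbb-bs against 207 to 233 and 540 CPM of summed blood cell genes against 317 to 338. Replicate 4 had 4.76 CPM of Mpg against 5.60 to 5.71. The part of tissue content in these values was not tested.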

How the results depend on the processing

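The counts of calls, more than the directions, depended on the processing. WT prefrontal cortex had 7 calls, against 29 with DESeq2, 23 without a filter on low counts, 6 with a mean of at least 10 counts, 7 with median-of-ratios scaling, 7 in the compared groups alone (4 of them shared), 3 with the replicate block and 2 to 7 with a sample left out. Abca8a and Gm42756 were called in each. Cyp2e1, Traf3, AA414992 and Spag6 lost the call with the replicate block and in other settings, and the lowest count was that without 6W replicate 2. KO prefrontal cortex had 17 calls, against 120 with DESeq2, 61 without a filter, 81 in the compared groups alone, 78 there with the replicate block and 2 to 15 with a sample left out. WT hippocampus had 28, against 90, 341, 2 and 16 in the same order, 55 with the replicate block in the shared fit and 9 to 50 with a sample left out. The difference between genotypes had 0 calls, 1 without a filter, and the difference between tissues 0, 1 with DESeq2 and 0 to 1 with a sample left out (1 without prefrontal 6W replicate 1). The cause was not tested. No comparison had every same-numbered pair of 6W and 6M libraries correlated above 0.1 in its deviations, so the numbers were not taken to pair the samples. The correlations were -0.113, 0.196, -0.251 and 0.217 in WT prefrontal cortex, 0.0069, 0.346, 0.272 and -0.455 in KO and 0.355, -0.0785, 0.332 and 0.149 in WT hippocampus, where 2, 1 and 2 of 4 libraries correlated best with their own number. Between same-numbered WT and KO prefrontal libraries of 1 age they were 0.528, -0.326, -0.223 and 0.2 at 6W. At 6M these were 0.398, 0.153, -0.109 and 0.202. The source of these correlations was not tested. No called gene changed direction, whereas Grin2b (-0.12 to 0.03), mt-Nd6 (-0.63 to 0.09) and Hbb-bs (-0.00 to 0.55), all far from the threshold, had log2 changes of both signs. At 4 samples a group the simulation recovered 38% of genes changed by 0.5 log2 units, so changes of that size can be missed. It changed only genes with higher counts and called more genes than the data, so this share is not the recovery in the data.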
